A study of Mus musculus with 16 samples.

Results

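Transcripts of 2 connexins and 5 inward rectifier potassium channels were followed in C2C12 cells, an established mouse myoblast line, with and without a triple knockout (tKO) of muscle microRNA genes: miR-206 together with both miR-1a loci (miR-1a-1, miR-1a-2). The 7 genes (Gja1, Gjc1, Kcnj2, Kcnj8, Kcnj12, Kcnj15 and Kcnj16), of 35275 genes in the deposited table, were taken by symbol. They were chosen by the measured tKO against control values, in which Kcnj16 was low in tKO cells, and because Gja1 and Kcnj2 are reported targets of miR-1 and miR-206. The tKO against control values are therefore given for these genes as a description without a test.

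The cells were labelled PAX7 negative, and all 4 lines share that origin: 2 control populations labelled wild type and 2 tKO clones, so that each clone stands for 1 edited line. Every line was grown in proliferation medium (GM, 20% fetal bovine serum, about 80% confluent) and harvested there or after 3 days of differentiation in 2% horse serum (DM3), with cultures numbered BR1 and BR2. Genotype and stage thus define 4 groups of 4 libraries, named control or tKO and GM or DM3. The labels do not say whether a culture number marks a shared day, so p-values measure the spread among libraries of 2 lines per genotype. Poly(A)-selected RNA was sequenced, and values are FPKM (fragments per kilobase of gene, scaled to the library total).

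Depth was 22642563 to 56585952 fragments per library. Levels of the deleted microRNAs were not analysed here, and the genotype labels have no check from them. The summed FPKM of 9 muscle markers was 30.4 to 98.1 in GM and 393 to 1294 in DM3. Myog, a regulator of terminal differentiation, had at most 5 fragments in any GM library, and Pax7, the satellite cell factor, had at most 6 in any library. Myod1, also a muscle marker, had at most 3 fragments in any GM library and was 0.746 to 3.41 FPKM in DM3. Actn2 was at most 0.227 FPKM in any library, while the myoblast marker Myf5 was 8.94 to 27.2 FPKM. Markers of endothelial cells summed to at most 0.483 FPKM. The smooth muscle list (Myh11, Cnn1, Smtn and Acta2) summed to 763 to 5456 FPKM, mostly from Acta2 (735 to 5436 FPKM). Smtn was at most 31.9 FPKM, Cnn1 at most 15.9 FPKM and Myh11 at most 0.206 FPKM in any library. RNA came from whole cultures, so fewer cells of a type and less RNA per cell cannot be told apart.

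Connexins assemble into gap junction channels that pass ions and small molecules between neighbouring cells. Gja1 encodes Cx43, the connexin best known from myoblasts before they fuse, and Gjc1 encodes Cx45. Inward rectifier (Kir) channels carry potassium current near the resting potential. Kcnj2 encodes Kir2.1, whose current hyperpolarises myoblasts ahead of fusion and thereby favours calcium entry and calcineurin signalling. Kcnj12 encodes its relative Kir2.2, and Kcnj8 encodes Kir6.1, a pore subunit of ATP-sensitive channels that needs a sulfonylurea receptor (Abcc8 or Abcc9). Kcnj16 encodes Kir5.1, which forms mixed channels with Kir4.2 (Kcnj15) or Kir4.1 (Kcnj10). MicroRNAs pair through their seed with matching sites, mostly in 3′ UTRs, and lower the stability or translation of the message.

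The mature sequence of miR-206 and the sites that match its seed in these genes are shown because Gja1 and Kcnj2 entered as targets. miR-1a belongs to the same family. miR-206-3p lies at chr1:20679055-20679076 on the plus strand (RefSeq, GRCm38.p6), and its seed, bases 2 to 8, is in capitals. The sites come from the longest 3′ UTR of each gene in GENCODE mouse release M21 (GRCm38), 5′ to 3′ on the transcript strand, with the match in capitals.
miR-206-3p: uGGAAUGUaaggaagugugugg
Gja1, first site (chr10:56389155-56389184, plus strand): tacatccccgctaaaaaACATTCCAgtgtt
Gja1, second site (chr10:56390279-56390308, plus strand): agaaactaatttgtttgACATTCCAtgtta
Kcnj2 (chr11:111074206-111074235, plus strand): agcttttctctcttagcACATTCCAaagtt
Kcnj8 (chr6:142566128-142566157, minus strand): gcctattcatcagcaggACATTCCtgttga

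The Gja1 3′ UTR (1720 bases) held 2 sites of the 8-base form, ACATTCCA, and the Kcnj2 3′ UTR (3751 bases) held 1. The Kcnj8 3′ UTR (1623 bases) held 1 site of the 7-base form ACATTCC. The letters ACATTCCA, ACATTCC and CATTCCA, searched on the transcript strand with each site counted once in its longest form, were not in the 3′ UTRs of Gjc1 (406 bases), Kcnj12 (664 bases), Kcnj15 (3531 bases) or Kcnj16 (2195 bases). Thus 3 of the 7 genes held a site. Among 10811 tested genes with an annotated 3′ UTR (median length 1365 bases), 4.75% held the 8-base form and 20.1% held any of the 3 forms. These UTRs differ in length from gene to gene, so the shares are not for windows of equal length. Gja1 and Kcnj2 were chosen as reported targets, and Kcnj8 and Kcnj12 were not among the tested genes. Nothing is therefore read from the 3 of 7 beside these shares.

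By symbol and position on mm10, Gja1 (ENSMUSG00000050953) spans chr10:56377300-56390419 and Gjc1 (ENSMUSG00000034520) chr11:102799579-102819700. Kcnj16 (ENSMUSG00000051497, chr11:110968033-111027968) and Kcnj2 (ENSMUSG00000041695, chr11:111066164-111076821) are neighbours on the plus strand, 38.2 kb apart with 0 protein-coding genes between them. Kcnj12 (ENSMUSG00000042529, chr11:61022564-61071131) lies on the same chromosome. Kcnj15 (ENSMUSG00000062609) spans chr16:95257558-95300260 and Kcnj8 (ENSMUSG00000030247) chr6:142564939-142571356. None of the 7 overlaps another gene of the table.

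Gja1 was the most abundant of the 7 in all 4 groups, and the channels ranged from Kcnj2 down to Kcnj8 and Kcnj12, which had few or no fragments. In control GM cells, mean FPKM, a level scaled by gene length, was 123 ± 9.94 for Gja1, 20.7 ± 3.37 for Kcnj2, 19.0 ± 2.38 for Kcnj16, 6.57 ± 0.563 for Gjc1 and 1.88 ± 0.452 for Kcnj15 (SD, n = 4). Kcnj2 and Kcnj16 overlapped in this order, while the other neighbours from Gja1 down to Kcnj15 did not. In control DM3 cells the order was Gja1, Kcnj16, Kcnj2, Kcnj15 and Gjc1, with overlap again only between Kcnj16 and Kcnj2. In tKO cells Kcnj16 stood below Kcnj2 at both stages, and it was the lowest of these 5 by its mean.

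**Figure D1:**
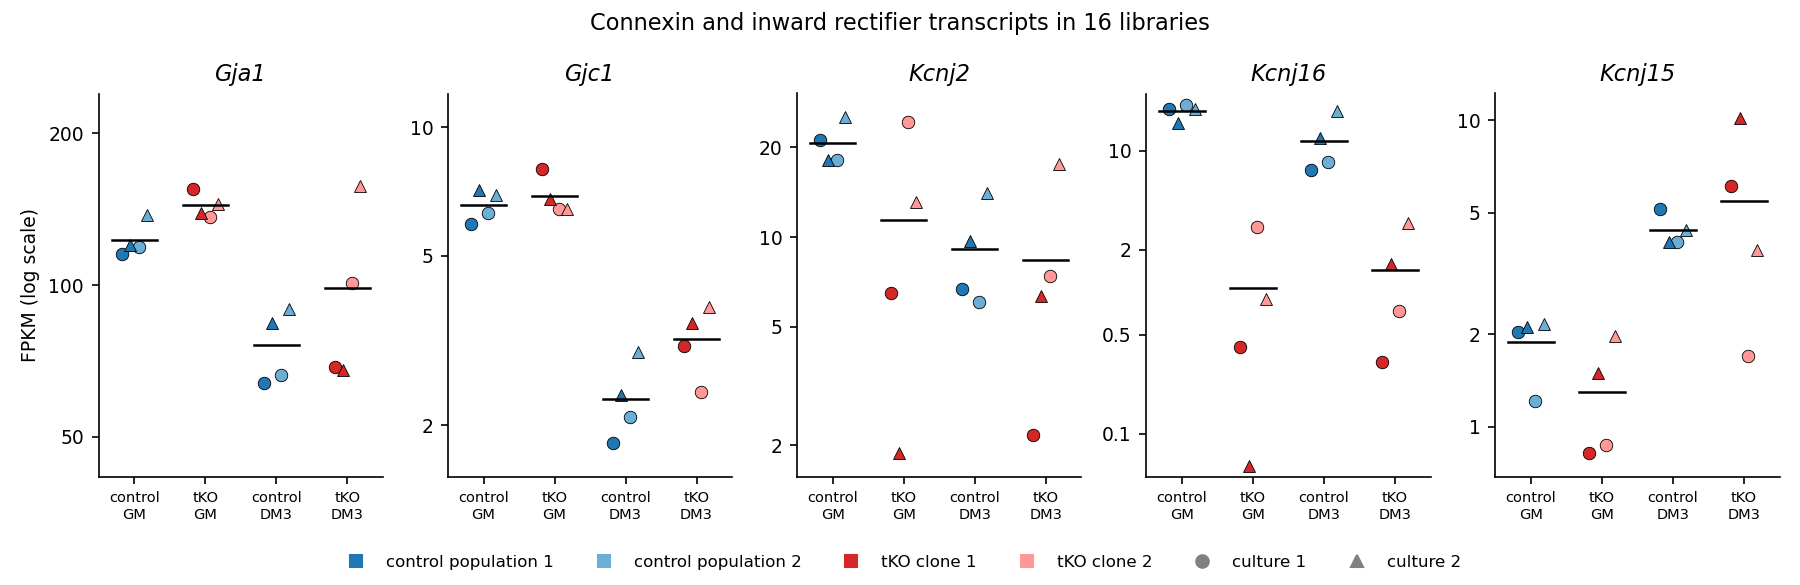
FPKM (log scale, with its own range for each gene) of the 5 genes that passed the filter, in the 4 groups of 4 libraries. Each point is a library, coloured by line and shaped by culture number, and horizontal bars are group means. Kcnj16 is the gene whose tKO libraries all lie below the control libraries at both stages, from 0.0597 to 2.89 FPKM against 15.6 to 21.2 FPKM in GM, and the Gja1 and Kcnj2 points of the tKO clones lie apart from each other in DM3 and GM, respectively.

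Of the 7 genes, 5 passed the filter for testing (mean of at least 0.5 FPKM over the 16 libraries), while Kcnj8 and Kcnj12 did not. Tests used limma on log2(FPKM + 1) over 11832 genes, and a gene was called at an adjusted p-value under 0.05. Differences below are on the log2(FPKM + 1) scale with their SE. In GM, 2.06% of all tested genes were called between tKO and control (1.51% lower and 0.549% higher in tKO). In DM3, 3.38% were called (1.36% lower and 2.02% higher). Libraries of tKO and control did not overlap for 14% of tested genes in GM and 8.52% in DM3. Of the 5, Kcnj16 alone did not overlap, at both stages. Because these contrasts chose the genes, nothing is read from that count.

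Gja1 was present in every library at 64.1 FPKM or more, and its tKO and control levels overlapped at both stages. In GM the control libraries measured 115 and 120.3 FPKM (population 1, cultures 1 and 2) and 119 and 138 FPKM (population 2). The tKO libraries measured 155 and 139 FPKM (clone 1) and 137 and 145 FPKM (clone 2). The highest control library thus lay just above the lowest tKO library, and the tKO minus control difference was 0.23 (SE 0.20).

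In DM3 the Gja1 values were 64.1 and 84.3 FPKM in control population 1 and 66.5 and 89.5 FPKM in population 2. Clone 1 measured 68.9 and 67.8 FPKM and clone 2 measured 101 and 157 FPKM. Clone 1 lay within the control range and clone 2 above it. The difference was 0.30 (SE 0.20) with both clones, -0.14 without clone 2 and 0.74 without clone 1. The direction therefore rested on clone 2.

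Gjc1 was similar in the 2 genotypes in GM, at 5.93 to 7.12 FPKM in control and 6.44 to 7.97 FPKM in tKO libraries. The tKO minus control difference was 0.061 (SE 0.13) in GM. In DM3 the control libraries measured 1.82, 2.36, 2.10 and 2.97 FPKM and the tKO libraries 3.07, 3.48, 2.39 and 3.79 FPKM. The DM3 groups overlapped through clone 2, culture 1, and the difference was 0.34 (SE 0.13).

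Kcnj2 was low in clone 1 and near the control level in clone 2. In GM the control libraries measured 21.1 and 18.2 FPKM (population 1) and 18.1 and 25.3 FPKM (population 2). Clone 1 measured 6.50 and 1.88 FPKM, and clone 2 measured 24.3 and 13.1 FPKM. Both clone 1 libraries and culture 2 of clone 2 were below every control library, while culture 1 of clone 2 was within their range. The mean of clone 1 was 20.3% of the control mean and that of clone 2 was 90.4%. The tKO minus control difference was -1.20 (SE 0.55), -2.21 without clone 2 and -0.19 without clone 1.

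In DM3, Kcnj2 measured 6.72, 9.73, 6.05 and 14.1 FPKM in control libraries. Clone 1 measured 2.17 and 6.32 FPKM and clone 2 measured 7.42 and 17.6 FPKM. The genotypes overlapped, with the lowest and the highest of the 8 values both in tKO libraries. The difference was -0.32 (SE 0.55), and it was -0.51 in culture 1 and -0.13 in culture 2. It was -1.01 without clone 2 and 0.37 without clone 1, so its direction rested on the clone.

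Median tKO minus control differences were taken over all tested genes with a 3′ UTR, leaving out the 7 genes. In GM the median was -0.046 for 511 genes with the 8-base site. It was -0.048 for 1665 genes with a 7-base site only and -0.014 for 8630 genes without a site. In DM3 the medians were 0.16, 0.078 and -0.011, in that order. The differences between these classes were not tested.

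Kcnj16 was lower in tKO cells in every comparison of libraries. In GM the control libraries measured 19.6 and 15.6 FPKM (population 1) and 21.2 and 19.8 FPKM (population 2). Clone 1 measured 0.410 and 0.0597 FPKM, which rest on 45 and 5 fragments, and clone 2 measured 2.89 and 0.894 FPKM. The tKO mean was 17.9-fold lower than the control mean, and the groups were far apart, with the highest tKO library well below the lowest control library. The log2 difference was -3.45 (SE 0.38), and it was -3.19 in culture 1 and -3.71 in culture 2.

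In DM3, Kcnj16 measured 7.27 and 12.3 FPKM in control population 1 and 8.28 and 19.2 FPKM in population 2. Clone 1 measured 0.320 and 1.60 FPKM and clone 2 measured 0.741 and 3.08 FPKM. The mean was 8.20-fold lower in tKO cells, with a difference of -2.43 (SE 0.38). The mean of clone 1 was 1.23% of the control mean in GM and 8.14% in DM3, and that of clone 2 was 9.95% and 16.2%. The ratio of Kcnj2 to Kcnj16 FPKM was 0.731 to 1.28 in the 8 control libraries and 3.96 to 31.5 in the 8 tKO libraries. The ratio of 31.5 came from clone 1, culture 2, in GM, where Kcnj16 had 5 fragments.

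Kcnj15, which encodes the Kir4.2 partner of Kir5.1, overlapped between genotypes at both stages. In GM it measured 2.04, 2.12, 1.21 and 2.17 FPKM in control libraries and 0.822, 1.49, 0.871 and 1.98 FPKM in tKO libraries, with a difference of -0.35 (SE 0.31). In DM3 the control libraries measured 5.12, 4.0, 4.01 and 4.40 FPKM. Clone 1 measured 6.08 and 10.2 FPKM and clone 2 measured 1.69 and 3.78 FPKM. The control libraries lay between the clones, and the difference was 0.076 (SE 0.31), with opposite signs in culture 1 (-0.34) and culture 2 (0.49).

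Kcnj8 and Kcnj12 were at the limit of detection. Kcnj8 had 0 fragments in 13 of 16 libraries and at most 5 in any. Kcnj12 had 0 fragments in 9 libraries and at most 7 in any. A floor of 3 fragments corresponds to 0.0242 to 0.0606 FPKM for Kcnj8 and 0.0215 to 0.0538 FPKM for Kcnj12, and 14 of 16 libraries were at or under it for each gene. This covers counting error only. With no filter on low values, Kcnj12 was called between stages in tKO cells (13 fragments in the 4 GM libraries against 0 in DM3, adjusted p = 0.0212), but not in control cells (6 fragments against 1, adjusted p = 0.492). The GM fragments came from 3 tKO libraries, 2 of them above the floor. Kcnj8 was not called in that fit between stages or lines, and its GM libraries held 5 fragments in control and 5 in tKO cells, against 0 and 1 in DM3.

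**Figure D2:**
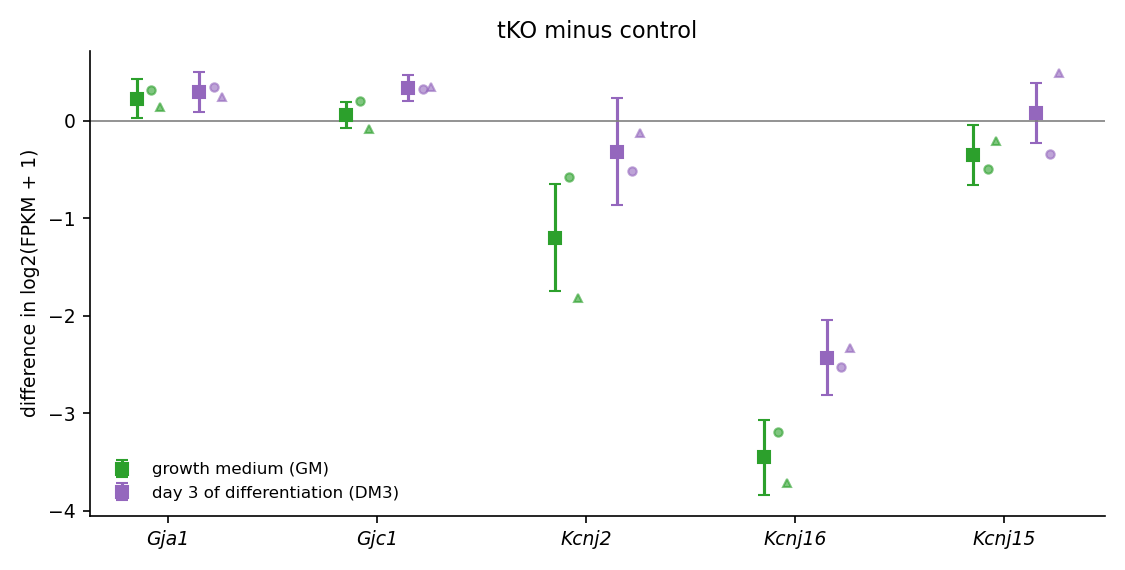
Difference in log2(FPKM + 1), tKO minus control, for the 5 genes that passed the filter. Squares with bars are the fitted differences ± SE over 16 libraries, and the small circles and triangles are the differences within culture 1 and culture 2. Kcnj16 lies at -3.45 in GM and -2.43 in DM3, and Gja1 and Gjc1 lie above 0 at both stages apart from Gjc1 in culture 2 in GM (-0.080).

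The differentiation contrast was not part of the rule that chose the 7 genes, and it was tested. The genes and lists were nevertheless chosen with earlier results of these data known. In control cells 61.5% of all tested genes were called between DM3 and GM (23.2% higher and 38.3% lower in DM3), and in tKO cells 60.9% (24.9% higher and 36% lower). With median-of-ratios scaling the control split was 30.5% higher against 30.7% lower and the tKO split 30.2% against 30.3%, and the median change of all genes moved from -0.15 to 0.0097 and from -0.12 to 0.0064. Of the 5 genes, 3 were called in control cells and 3 in tKO cells, a share near that of all genes. They were Gja1, Gjc1 and Kcnj15 in both genotypes, and no member changed direction with the scaling.

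Both connexins fell during differentiation. Gjc1 fell in control cells from 6.57 ± 0.563 to 2.31 ± 0.493 FPKM (difference -1.20, SE 0.13, adjusted p = 1.16e-06) and in tKO cells from 6.91 ± 0.725 to 3.18 ± 0.607 FPKM (-0.93, SE 0.13, adjusted p = 1.62e-05; SD, n = 4). Stages did not overlap for Gjc1 in either genotype, as for 64.4% of all tested genes in control and 49.1% in tKO cells. It was lower in DM3 in 8 of 8 pairs of a GM and a DM3 library with the same line and culture number, a match by label that serves here to count directions, and it kept the call under every alternative that tested it.

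Gja1 fell in control cells from 123 ± 9.94 to 76.1 ± 12.7 FPKM (difference -0.70, SE 0.20, adjusted p = 0.00712). It was lower in DM3 in 4 of 4 control pairs of line and culture number. Without control population 1 the adjusted p was 0.101 and without population 2 it was 0.114 (range over alternatives 0.00023 to 0.114). In tKO cells Gja1 fell from 144 ± 8.29 to 98.7 ± 42.0 FPKM (-0.63, SE 0.20, adjusted p = 0.0137), with 3 of 4 pairs lower.

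The tKO call for Gja1 depended on clone 1. Clone 2, culture 2, had 145 FPKM in GM and 157 FPKM in DM3. Without clone 1 the difference was -0.16 (adjusted p = 0.536), and the adjusted p was 0.0507 without the DM3 library of clone 1, culture 1, 0.0528 without that of culture 2, 0.0602 with line averages and 0.0527 with tKO libraries only (range over alternatives 0.000127 to 0.536). The summed muscle markers of clone 2, culture 2, in DM3 were 393 FPKM, the lowest of the 8 DM3 libraries. The part of this in the Gja1 value was not tested.

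Kcnj15 rose during differentiation. In control cells it went from 1.88 ± 0.452 to 4.38 ± 0.528 FPKM (difference 0.91, SE 0.31, adjusted p = 0.0172), with 4 of 4 pairs higher. The adjusted p was 0.147 without control population 1, 0.189 without population 2, 0.0551 without the GM library of population 2, culture 1, and 0.063 with line averages (range over alternatives 8.06e-05 to 0.189). In tKO cells it went from 1.29 ± 0.551 to 5.44 ± 3.64 FPKM (1.33, SE 0.31, adjusted p = 0.00133), with 4 of 4 pairs higher. Without clone 1 the difference was 0.60 (adjusted p = 0.0841; range over alternatives 2.99e-05 to 0.0841).

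Kcnj2 did not pass the test in either genotype. In control cells its mean was 20.7 ± 3.37 FPKM in GM and 9.15 ± 3.66 FPKM in DM3, the 2 stages did not overlap, and 4 of 4 pairs were lower in DM3 (difference -1.15, SE 0.55, adjusted p = 0.0802). The spread was shared with the tKO libraries in this fit. With control libraries only the adjusted p was 0.00115, and it was 0.00459 without clone 1, 0.0086 without clone 2, 0.0141 with the line as a replicate block, 0.0489 without the GM library of clone 2, culture 1, and 0.0325 without that of clone 1, culture 2 (range over alternatives 0.00115 to 0.346). In tKO cells the difference was -0.27 (SE 0.55, adjusted p = 0.689), with 2 pairs higher and 2 lower.

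Kcnj16 likewise did not pass. Its mean in control cells was 19.0 ± 2.38 FPKM in GM and 11.8 ± 5.42 FPKM in DM3 (difference -0.73, SE 0.38, adjusted p = 0.108), and 4 of 4 pairs were lower. The adjusted p was 0.0275 with control libraries only, 0.0311 without clone 2 and 0.0418 without the DM3 library of population 2, culture 2 (range over alternatives 0.0275 to 0.42). In tKO cells the difference was 0.29 (SE 0.38, adjusted p = 0.539), with 2 pairs higher and 2 lower. The 2 tKO pairs that were higher in DM3 were those of culture 2 for both Kcnj16 and Kcnj2.

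**Figure D3:**
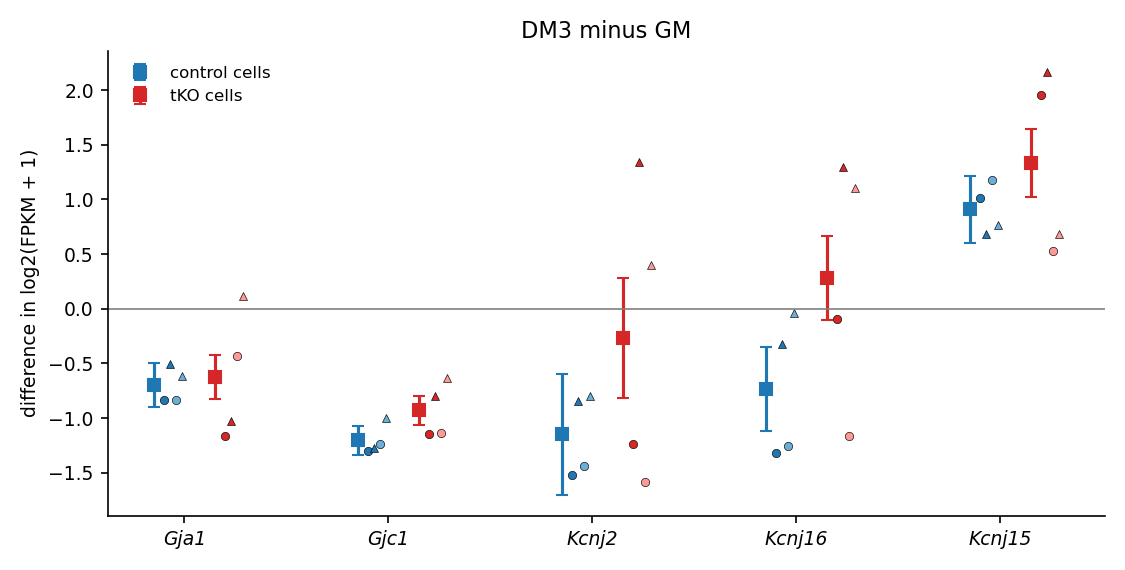
Difference in log2(FPKM + 1), DM3 minus GM, in control and tKO cells. Squares with bars are the fitted differences ± SE, and the small points are single lines (colours as for the levels by library) in culture 1 (circles) and culture 2 (triangles), matched by line and culture number. Gjc1 lies below 0 and Kcnj15 above 0 in all 8 points, and the tKO points of Kcnj2 and Kcnj16 lie on both sides of 0.

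Culture numbers separated several of these genes. In DM3, culture 2 was higher than culture 1 in all 4 lines for Kcnj2 (by 0.48 to 1.21), Kcnj16 (0.68 to 1.23) and Gjc1 (0.14 to 0.50), an arrangement that 22.7% of all tested genes showed. In GM, Kcnj16 was lower in culture 2 in all 4 lines (-1.04 to -0.093), as were 17% of all tested genes. Kcnj15 was higher in culture 2 in all 4 lines in GM (0.035 to 0.67), as were 14.5% of tested genes. The summed muscle markers in DM3 were 1190 and 1294 FPKM in cultures 1 and 2 of control population 1, and 911 and 890.4 FPKM in population 2. They were 1258 and 450 FPKM in clone 1 and 1071 and 393 FPKM in clone 2. The 2 tKO cultures numbered 2 thus had low sums, and the part of this in the channel values was not tested. Single markers in DM3 did not all go the same way. Tnnt3 was 69.2 to 140 FPKM in tKO and 187 to 259 FPKM in control libraries. Myh3 was 15.8 to 79.5 FPKM in tKO and 7.14 to 16.1 FPKM in control libraries.

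A model with 1 mean for each line, adjusted for stage, compared the lines within a genotype. Between the tKO clones 7.22% of all tested genes were called (3.96% higher and 3.25% lower in clone 2, with 23.5% at an unadjusted p under 0.05), and of the 5 genes Kcnj2 was called. It was higher in clone 2 by 1.70 (SE 0.37, adjusted p = 0.0151), in 4 of 4 libraries of clone 2 against the clone 1 library of the same stage and culture number. The call was lost with tKO libraries only (adjusted p = 0.0938), without the DM3 library of clone 2, culture 2 (0.0593), in GM alone (2.02, adjusted p = 0.129) and in DM3 alone (1.38, adjusted p = 0.369; range over alternatives 0.00769 to 0.369). The differences of Kcnj16 (0.84, adjusted p = 0.143), Gja1 (0.41, 0.203), Kcnj15 (-0.58, 0.240) and Gjc1 (-0.13, 0.617) did not pass.

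Between the 2 control populations 0% of all tested genes were called with limma, and 0.465% had an unadjusted p under 0.05. None of the 5 genes was among the latter. Their differences ran from -0.15 (Kcnj15) to 0.30 (Kcnj16). The spread in this fit was shared with the tKO libraries, and with control libraries only 0 genes were also called. So few low p-values do not show that the populations are alike.

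Since Kcnj16 and Kcnj2 are neighbours, the nearest protein-coding genes were examined for a shared change. Before the pair, Abca5, a lipid transporter, had tKO minus control differences of 0.0065 in GM (adjusted p = 0.993) and 0.084 in DM3 (adjusted p = 0.873). Map2k6, a kinase of the p38 pathway, had -0.42 in GM (adjusted p = 0.377) and -0.13 in DM3 (adjusted p = 0.842). After the pair, Sox9, a chondrogenic transcription factor, had -0.77 in GM (adjusted p = 0.403) and -0.084 in DM3 (adjusted p = 0.952). Slc39a11, a zinc transporter, had -0.68 in GM (adjusted p = 0.346) and -0.25 in DM3 (adjusted p = 0.787). None of the 4 passed the test. Abca6 and Sstr2 were too low to be tested, at no more than 2 and 15 fragments in any library.

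Slc39a11, like Kcnj2, was higher in clone 2 than in clone 1 (1.26, adjusted p = 0.00147). It lies 2168 kb beyond Kcnj2. In GM its clone mean minus the control mean was -1.29 for clone 1 and -0.077 for clone 2. The corresponding values for Kcnj2 were -2.21 and -0.19, and for Kcnj16 -4.03 and -2.88. Sox9, which lies between Kcnj2 and Slc39a11, showed no call between the clones (-0.17, adjusted p = 0.864).

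**Figure D4:**
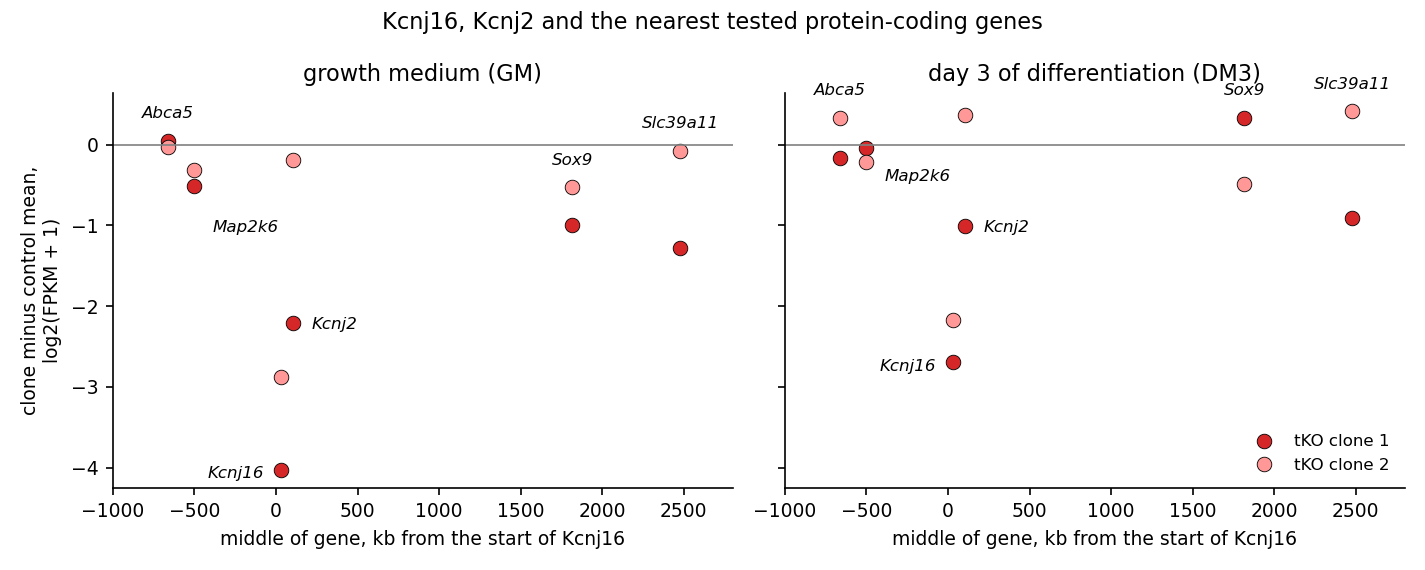
Mean of each tKO clone minus the mean of the control libraries, in log2(FPKM + 1), for Kcnj16, Kcnj2 and the 4 nearest tested protein-coding genes, against the distance of the middle of each gene from the start of Kcnj16 (kb). Kcnj16 lies below -2 in both clones at both stages. Kcnj16, Kcnj2 and Slc39a11 lie lower in clone 1 than in clone 2 at both stages, Map2k6 and Sox9 in GM only and Abca5 in DM3 only.

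Other genes of the same families were mostly silent. Of 18 other connexins, 17 stayed below the filter, and 9 had at most 3 fragments in every library. Gja5, a connexin of heart and vessel, had at most 1 fragment in any library.

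Pannexins form single-membrane channels related in shape to gap junction hemichannels. Panx1, the 1 of 3 that passed the filter, fell in control cells from 6.20 ± 1.04 to 3.28 ± 1.41 FPKM (-0.80, adjusted p = 0.0074) and in tKO cells from 5.30 ± 1.62 to 2.92 ± 0.744 FPKM (-0.67, adjusted p = 0.0208). It was not called between tKO and control. Panx3 had at most 1 fragment in any library.

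Of 16 genes for proteins that bind, anchor or modify Cx43, 14 were tested. None was called between tKO and control in GM, where the median difference was 0.0027 against -0.012 for all tested genes. In DM3, 1 was higher and 1 lower in tKO cells, the latter being Ezr, an actin linker, at 15.4 ± 2.30 against 23.1 ± 2.83 FPKM (-0.56, SE 0.13, adjusted p = 0.022). During differentiation 2 rose and 5 fell in control cells, and 1 rose and 7 fell in tKO cells. In control cells N-cadherin (Cdh2) fell by 1.18 on the log2 scale (adjusted p = 0.000261) and Ctnnb1, beta-catenin, by 0.66 (adjusted p = 0.00354).

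In tKO cells Cdh2 fell by 1.11 (adjusted p = 0.000427), while the kinase gene Mapk3 rose by 1.15 (adjusted p = 0.000235). Tjp1 encodes ZO-1, the scaffold that binds the tail of Cx43, and it was not called in any comparison. Its tKO minus control difference was 0.012 in GM (adjusted p = 0.993) and 0.43 in DM3 (adjusted p = 0.563).

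None of 10 other Kir channel genes passed the filter, and 5 of them had at most 3 fragments in every library. The highest value was 0.566 FPKM, for Kcnj14. Kcnj10, which encodes the Kir4.1 partner of Kir5.1, was at 0 in 12 of 16 libraries and had at most 6 fragments. Between Kcnj10 and Kcnj15, the latter was thus the gene with a measurable message. Kcnj11 had at most 1 fragment, and the sulfonylurea receptor genes Abcc8 and Abcc9 had at most 3 and 6 fragments in any library.

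Of 14 genes for scaffolds and binding partners of Kir channels, 9 were tested and none was called between tKO and control at either stage. During differentiation 3 rose and 3 fell in control cells, and 2 rose and 3 fell in tKO cells. The actin crosslinker Flna fell from 506 ± 42.7 to 137 ± 13.7 FPKM in control cells (-1.88, adjusted p = 2.72e-07) and by 1.60 on the log2 scale in tKO cells (adjusted p = 1.35e-06). Dlg4, which encodes the scaffold PSD-95, rose from 8.91 ± 0.961 to 35.2 ± 6.15 FPKM in control cells (1.86, adjusted p = 5.75e-08) and by 1.89 in tKO cells (adjusted p = 4.65e-08).

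Of 14 genes of calcium entry and calcineurin signalling, which Kir2.1 current is known to feed, 9 were tested. Ppp3ca, a catalytic subunit of calcineurin, was the 1 called between genotypes in GM, at 30.9 ± 7.03 FPKM in tKO against 51.6 ± 5.78 FPKM in control cells (-0.75, SE 0.16, adjusted p = 0.0199). No gene of the list was called in DM3. In control cells 1 rose and 3 fell during differentiation, and in tKO cells 2 rose and 2 fell. Stim1, the calcium sensor of the store, rose by 1.05 in control (adjusted p = 6.04e-05) and 0.90 in tKO cells (adjusted p = 0.000269).

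Nfatc1, a calcineurin-regulated transcription factor, fell by 0.76 in control (adjusted p = 0.000105) and by 0.69 in tKO cells (adjusted p = 0.000253). Nfatc3, of the same family, fell by 0.84 in control cells (adjusted p = 0.00298). Ppp3ca rose by 0.48 in tKO cells (adjusted p = 0.0142). The calcium channel gene Orai1 was higher in clone 2 than in clone 1 (0.44, adjusted p = 0.0483).

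Of 79 other potassium channel genes 10 passed the filter. Kcnk5, a two-pore channel, was lower in tKO GM cells, at 0.602 ± 0.217 against 1.37 ± 0.201 FPKM (-0.57, SE 0.13, adjusted p = 0.0311), and none was called in DM3. In control cells 3 rose and 3 fell during differentiation, and in tKO cells 4 rose and 2 fell. The voltage-gated channel gene Kcnh2 rose by 1.36 in control (adjusted p = 2.6e-06) and 1.80 in tKO cells (adjusted p = 1.29e-07). The calcium-activated channel gene Kcnn4 changed by -1.36 (adjusted p = 0.000109) and -1.84 (adjusted p = 5.36e-06), and its relative Kcnn1 rose by 1.31 (adjusted p = 1.5e-06) and 1.13 (adjusted p = 6.65e-06). Between the clones 3 were lower in clone 2: Kcnk12 (-1.23), Kcnab1 (-1.05) and Kcnf1 (-0.77), with adjusted p of 2.37e-05, 0.00647 and 0.0268.

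The genes whose pattern was most like those of Gja1, Kcnj2 and Kcnj16 were found by the root mean square (RMS) difference of centred log2(FPKM + 1) over the 16 libraries. For Gja1, whose own RMS about its mean was 0.45, they were Fam101b (0.20), Casp2 (0.21) and Tmem194 (0.21). For Kcnj2 (own RMS 0.96) they were Osmr (0.40), Pcdh7 (0.42) and Pxylp1 (0.42). For Kcnj16 (own RMS 1.59) they were Nsg1 (0.66), Robo1 (0.67) and Emb (0.71). Emb averaged 8.76 FPKM in control GM and 0.0289 FPKM in tKO GM libraries, and Robo1 averaged 4.56 and 0.0174 FPKM. The low tKO values for which Kcnj16 was chosen enter this distance. From GM to DM3 in control cells the Kcnj16 mean went from 19.0 to 11.8 FPKM and that of Robo1 from 4.56 to 4.11. Those of Nsg1 (37.0 to 61.7 FPKM) and Emb (8.76 to 13.2 FPKM) went up. The RMS difference scales with a gene's own RMS, so the 3 sets of distances are not compared with each other.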

How the data were processed

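The authors deposited 1 table of FPKM values with 1 column per library, with each gene's length and position. STAR, DESeq and mm10 are named in the submitters' processing notes, without a role or a version; the counting program, annotation release and strand setting are not given in the sources used here. Columns were matched to libraries by the label in each sample's description, and groups were taken from the titles. FPKM multiplied by gene length gave whole fragments for 100% of values (tolerance 0.05 fragments), which gave depth and the floor of 3 fragments.

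The members and gene lists were chosen with earlier results of these data known. Genes with a mean of at least 0.5 FPKM over 16 libraries were tested on log2(FPKM + 1) with limma 3.58.1 in R 4.3.3 (group means over all libraries, trend and robust moderation, Benjamini-Hochberg over all tested genes). Fold changes on this scale understate changes of low genes. The procedure was also run on simulated independent libraries without line or culture structure, so that run does not bear on dependence among lines or cultures. None of the 24 pairs of libraries within groups looked like 1 library deposited again (chi-square per degree of freedom 20.5 to 256), which says nothing about whether cultures of a line are independent.

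Named were the 7 genes, 8 related genes whatever their values, up to 3 genes with the largest change among those called per list and contrast, 3 neighbours on each side and 3 most similar genes. Some genes that this rule names are not reported here. Alternatives were pseudocount 0.1, no filter or 5 FPKM, median-of-ratios scaling, voom on fragments, a replicate block, line averages, compared libraries only, and leaving out each line or library. The line as a replicate block, and the clone and population fits with compared libraries only or 1 stage only, were chosen after seeing the data. Tables and figures used Python 3.11.15, pandas 2.3.3 and matplotlib 3.10.9.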

Additional observations from a re-analysis of the deposited data

Results flagged for a closer look

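Of 28 groups of 4 libraries examined for the 7 genes, 5 held a library far from the other 3. Chance flags about 1 in 20 groups, a rate that does not apply to 4 of the 5, where the remaining libraries were all at 0 fragments and any fragment sets a library apart. These 4 rest on 5, 5, 1 and 1 fragments. Kcnj8 was 0.0920 FPKM in control GM population 1, culture 2, 0.101 FPKM in tKO GM clone 1, culture 2, and 0.0165 FPKM in tKO DM3 clone 2, culture 1. Kcnj12 was 0.0128 FPKM in control DM3 population 2, culture 1. Kcnj15 was 1.21 FPKM in control GM population 2, culture 1, below the 2.04 to 2.17 FPKM of the other 3 control GM libraries.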

How the results depend on the processing

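Of 5 tested genes, the 3 called between DM3 and GM in control cells became 1 with a filter of 5 FPKM (3 tested) 1 without control population 1 and 1 without population 2, and 5 with control libraries only or without clone 2. The 3 called in tKO cells became 1 with a filter of 5 FPKM, 1 without clone 1, 2 with line averages, 2 with tKO libraries only and 4 with no filter, which added Kcnj12. Line averages gave 2 in control cells and leaving out clone 1 gave 4. The DM3 minus GM difference of Kcnj2 in tKO cells was 0.052 without clone 2 and ran from -0.84 to 0.21 with each library left out. That of Kcnj16 was -0.027 without clone 1 and ran from -0.0066 to 0.65. Between clones, the 1 called became 0 with tKO libraries only, in GM alone and in DM3 alone, and 0 to 1 with each library left out. In GM alone, Gja1 was -0.061 and Kcnj15 0.15. Between populations, Kcnj2 ran from -0.075 to 0.36. The tKO minus control difference of Kcnj16 was -4.76 in GM and -3.23 in DM3 with pseudocount 0.1, and -5.05 and -3.39 with voom. The causes were not tested.

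All genes called between tKO and control numbered 244 in GM (33 to 1315 over alternatives) and 400 in DM3 (49 to 1136), 854 between clones (59 to 1133) and 7272 between stages in control cells (4440 and 4693 without a control population).

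When culture entered as a replicate block, the numbers of members called were 3, 3, 1 and 0, and all-gene counts were 336 (GM), 523 (DM3), 7467 and 7400 (stages) and 1133 (clones). Libraries of the same line and culture number deviated together (correlation over 0.1) in 6 of 8 pairs across stages (0.077 to 0.32). Of 16 libraries, 9 correlated best with that of their own line and number at the other stage. The genotypes share no line, so control population 1 was matched with clone 1, and 2 with 2, by culture number. Of these 8 pairs, 6 were over 0.1 (-0.22 to 0.56). Each kind gave a hint of pairing by label that 2 pairs did not show, and the main model has no block. With the line as a replicate block, added after seeing the data, 4 members (with Kcnj2) and 3 were called between stages in control and tKO cells. That fit called 7508 and 7399 of all 11832 tested genes. Depth limits Kcnj8, Kcnj12 and the lowest tKO values of Kcnj16 (5 fragments in clone 1, GM, culture 2). The 2 lines per genotype limit all the genes that were tested.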
